A study of Mus musculus with 40 samples.

Results

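Mammary glands taken 1 month after lactation had switched on a viral oncogene (1M, 5 mice) were compared with the glands taken at every later month (2M, 3M, 4M and 5M, 5 mice each, pooled to 20), and the arrays were assigned by their month labels: 25 of the 40 arrays of the series. All 25 glands came from WAP-TNP8 mice, whose mammary epithelial cells make the T/t-antigen from the WAP promoter, a milk gene promoter that lactation turns on. The 10 control glands, given here only as levels, were 5 from wild type BalbC mice, whose history of lactation the sources do not give, and 5 from transgenic mice before activation. Each mouse gave 1 Affymetrix array, with 50 ng of total RNA amplified in 2 cycles. Which frozen part of its glands supplied the RNA is not stated. The ages of the mice are not in the labels. The study left the 1M animals out of its further analysis, citing artifacts due to lactation. Its methods count months after lactation and a figure legend counts them from the start of lactation, so the time since lactation ended is unclear. Time since lactation, time with the antigen and age rise together over these months and cannot be told apart. No gland of the series is labelled as coming from a wild type mouse after lactation. The tissue was measured in bulk, so that fewer cells of a type and less RNA per cell cannot be told apart in any result below. The level of the transgene itself was not analysed here.

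When suckling stops, the mammary gland passes through involution. The milk-making alveolar cells die in large numbers, the remaining epithelium and incoming macrophages engulf dead cells and leftover milk fat, matrix-degrading enzymes open the tissue, fat cells refill it, and a burst of acute-phase proteins accompanies the process under the control of Stat3. Large T antigen binds the retinoblastoma proteins and p53, which frees E2F factors to switch on genes of DNA replication and mitosis.

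Values are log2 intensities, and a difference is the mean of the 1M arrays minus the mean of the later arrays, with its standard error (SE) from limma and a p adjusted by the Benjamini-Hochberg method over 45037 probe sets. At the thresholds of the study (adjusted p at most 0.01 and a change of at least 5-fold) 12 probe sets were higher and 17 lower in the 1M glands, which is 0.0266% and 0.0377% of those tested. When the fold limit was dropped and the adjusted p eased to 0.05, 607 were higher (1.35%) and 669 lower (1.49%), so that 47.6% of the calls were higher. Centring every array on its own median moved this split to 93.0% higher, with 15875 higher and 1194 lower, and shifted the median difference of all probe sets to 0.11. With 1 probe set for each of 18193 genes, 362 genes were higher (1.99%) and 223 lower (1.23%) at 0.05, and 8 and 4 passed the stricter rule (0.044% and 0.022%). The median difference over these genes was 0.01, and 61.7% of them had a positive difference. At an unadjusted p under 0.05, with which counts of list members are also given below, 10.4% of genes were higher and 5.86% lower. Of the 362 and the 223 genes, all had the 4 month means on the same side of the 1M mean, but 31 and 18 passed against each month taken alone and 107 and 27 against none. Against 2M alone 104 genes were higher (0.572%) and 56 lower (0.308%), against 3M 114 (0.627%) and 139 (0.764%), against 4M 289 (1.59%) and 225 (1.24%), and against 5M 372 (2.04%) and 435 (2.39%).

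The arrays of the 1M glands were much alike, with correlations of 0.987 to 0.994, against 0.962 to 0.997 among the later arrays. Their median log2 intensity was slightly lower, 4.30 to 4.39 in 1M and 4.34 to 4.59 in the later glands (difference -0.10, adjusted p = 0.00762, exact permutation test over the 53130 splits, two-sided, 9 measures). The percent of probe sets below 5 was slightly higher, 52.6 to 53.1 in 1M and 51.8 to 52.9 later (difference 0.43, adjusted p = 0.00762, same exact test). The Dap RNA added at labelling read 10.35 to 11.59 in 1M and 3.56 to 12.60 later, being near the floor on 4 of the 5 5M arrays (adjusted p = 0.149 by the same exact test). The 3-prime minus 5-prime difference of the beta-actin control probe sets was 5.40 on 4M replicate 2, against a median of 2.08 over the later arrays. For Gapdh it was 4.85 against 2.89. Both measures had an adjusted p of 0.957 between the groups in that test. 4M replicate 2 also had the lowest mean correlation with the other arrays, 0.975. Beta-actin (Actb), a common loading control, was lower in 1M, at 14.54, 14.25, 14.12, 14.29 and 14.64 against 14.45 to 15.53 with a median of 15.03 later (-0.64 ± 0.16, adjusted p = 0.023), a call that was lost without 1M replicate 2, 3 or 4 (up to 0.103), without the 4M arrays (0.0656) and without the arrays high in T cell markers described next (0.313). Markers of T cells differed widely inside both groups: the mean of 12 markers was 5.63, 3.57, 3.32, 6.87 and 3.33 in 1M and 3.17 to 9.47, with a median of 3.69, later. A fit without the arrays high in these markers left 3 1M arrays against 11 later ones and called 49 probe sets higher and 59 lower at 0.05. Their part in the results was not tested otherwise.

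Saa1 (serum amyloid A1, an acute-phase protein) was the gene with the largest rise at 1M. It read 12.27, 10.87, 12.23, 14.36 and 11.08 in the 1M glands, against a lowest value of 3.95, a median of 7.70 and a highest of 12.08 in the later glands. The difference was 4.81 ± 0.90, or 28.1-fold (adjusted p = 0.0037), and 1 later array reached into the 1M range. The month means were level, at 7.62, 7.47, 6.86 and 7.44 from 2M to 5M, all well above the mean of 3.22 in controls. A near-identical copy, Saa2, can share its signal, and for Saa2 the difference was 1.43 (adjusted p = 0.126).

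**Figure D1:**
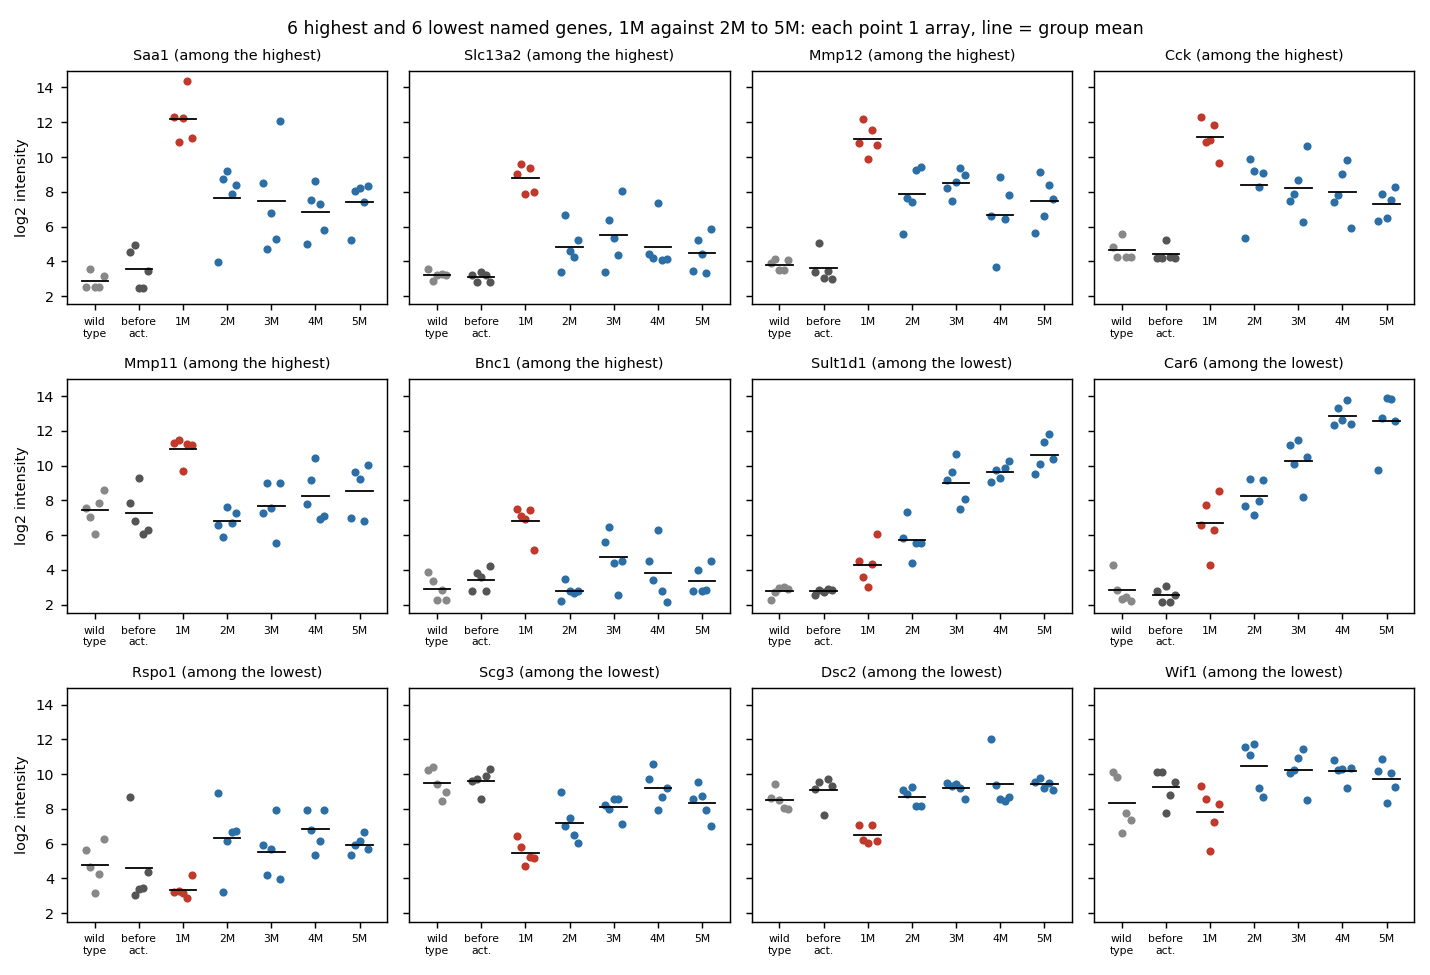
Log2 intensity of the 6 highest and 6 lowest named genes (panels) on each array by group, controls at the left and months in order, with a line at each group mean and 5 arrays per group. The 1M points of Mmp12 lie above, and those of Dsc2 below, every later array, and Sult1d1 and Car6 climb from 2M to 5M.

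Slc13a2, a sodium-coupled carrier of dicarboxylates and citrate, had the next largest rise. It read 9.0, 9.59, 7.89, 9.37 and 8.0 in 1M against 3.35 to 8.04 with a median of 4.40 later (3.86 ± 0.62, 14.5-fold, adjusted p = 0.00128). Controls averaged 3.16, close to the floor (52.3% of probe sets had a mean below 5). Cck, the peptide cholecystokinin, read 12.31, 10.89, 10.99, 11.84 and 9.65 in 1M and 5.36 to 10.63, median 7.87, later (3.17 ± 0.67, adjusted p = 0.00848). Both genes showed 1M values near the top of the scale of the later glands or above it, with 1 later array inside the 1M range for Slc13a2 and 3 for Cck.

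Enzymes that cut matrix stood high on the list as well. Mmp12, the elastase of macrophages, read 10.80, 12.16, 9.91, 11.53 and 10.71 in 1M and 3.69 to 9.43, median 7.73, later, so that the groups did not overlap (3.39 ± 0.70, 10.5-fold, adjusted p = 0.00762). In all, 35 genes (0.192%) had all 1M arrays above all later arrays, and 18 (0.0989%) had them all below. Mmp11, a stromal metalloproteinase, read 11.27, 11.50, 9.68, 11.27 and 11.18 in 1M and 5.53 to 10.43, median 7.40, later (3.16 ± 0.64, adjusted p = 0.00675). In controls Mmp12 averaged 3.71 and Mmp11 7.34, and neither had a slope over 2M to 5M that passed (adjusted p = 0.76 and 0.37).

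Bnc1, the epithelial zinc-finger factor basonuclin, read 7.49, 7.10, 6.94, 7.47 and 5.17 in 1M, against 2.13 to 6.49 with a median of 3.12 later (3.15 ± 0.62, adjusted p = 0.0052). Rasgef1c, an exchange factor for small GTPases, averaged 7.20 ± 0.80 in 1M and 4.72 ± 0.69 later (SD, n = 5 and 20; 2.49 ± 0.35, adjusted p = 0.000381). Mlana, the melanocyte antigen melan-A, averaged 4.98 ± 1.82 in 1M and 2.00 ± 0.29 later (adjusted p = 0.000219), but 1M replicate 3 stood at the floor with 1.94. The other leaders, which passed at 0.05 only on their brightest probe sets, were 2 immunoglobulin light chain segments, Igkv6-14 (3.08) and Igkv15-103 (3.02), whose probe sets may read related segments too, the vitamin D-degrading enzyme Cyp24a1 (2.82) and Atp6v0d2, a proton pump subunit best known from osteoclasts (2.32), of which a dimmer probe set passed the strict thresholds (2.48, adjusted p = 0.00542). These 4 calls depended on single 1M mice: Igkv6-14 was lost without 1M replicate 2, 4 or 5 (adjusted p up to 0.121), Igkv15-103 without replicate 1, 2 or 4 (0.134), Cyp24a1 without replicate 2, 3 or 4 (0.0846) and Atp6v0d2 without replicate 2 or 4 (0.0918). The other 8 of the 12 passed at 0.05 in each of the 25 fits that left out 1 array. In the fit without the arrays high in T cell markers only Slc13a2 of the 12 still passed (3.99, adjusted p = 0.0436).

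Chil1, a chitinase-like protein secreted by macrophages and mammary epithelium, did not rank among the 12. It was picked after its values were seen. It read 14.05, 13.52, 14.01, 14.49 and 13.70 in 1M and 10.57 to 13.38, median 11.65, later, with no overlap (2.18 ± 0.33, 4.52-fold, adjusted p = 0.000617), and averaged 9.98 in controls. It passed in each of the 25 fits without 1 array, and not without the arrays high in T cell markers (2.14, adjusted p = 0.0541).

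Most macrophage markers were higher in the 1M glands. Of 16 measured markers 9 were higher and 0 lower at 0.05 (56.2% against 1.99% of all genes), and their median difference was 1.02 against 0.01 for all genes. Averaged over the list, the 1M glands stood at 10.85, 11.13, 10.79, 11.67 and 10.99, above every later gland (9.03 to 10.72, median 10.30), and controls at 8.91 to 10.36. C1qc, a chain of the complement starter C1q made by tissue macrophages, read 11.27, 11.78, 12.11, 12.20 and 11.43 in 1M and 9.30 to 11.28, median 10.38, later (1.31 ± 0.23, adjusted p = 0.00232). Its partner C1qb was higher by 1.20 (adjusted p = 0.00848), while C1qa, at 1.04, did not pass (0.19). Cd68, a protein of the macrophage lysosome, was higher by 1.47 with no overlap (adjusted p = 0.00848).

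Surface receptors of macrophages were part of this group. Itgax (CD11c) was higher by 1.27 ± 0.21 (adjusted p = 0.00157), the Fc receptor Fcgr3 by 1.07 ± 0.20 (0.00425), Adgre1 (F4/80) by 0.91 (0.00654) and the mannose receptor Mrc1 by 1.00 (0.0281). Trem2, a receptor for lipids and dead cells, had the smallest adjusted p of the list, 6.58e-06, with no overlap, although its levels were near the floor at 4.82 ± 0.49 in 1M and 3.41 ± 0.22 later (SD, n = 5 and 20). A dimmer probe set of Trem2 differed by 0.09 and did not pass (adjusted p = 0.592). The growth factor receptor Csf1r (0.46, adjusted p = 0.228), lysozyme Lyz2 (0.54, 0.255) and the scavenger receptor Marco (-1.54, 0.85) did not pass. Against single months 6, 3, 9 and 7 of the 16 were higher at 2M, 3M, 4M and 5M. The count stayed at 8 or 9 when any 1 array was left out, and was 1, Trem2, without the arrays high in T cell markers, where 14 were higher at an unadjusted p under 0.05 and the median difference was 1.09. Set against controls, which share no array with either group but are the same 10 in both comparisons, the median of the list was 1.11 in 1M with 9 higher (4.24% of all genes) and 0.08 in the later glands with 3 higher (11.2% of all genes).

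**Figure D2:**
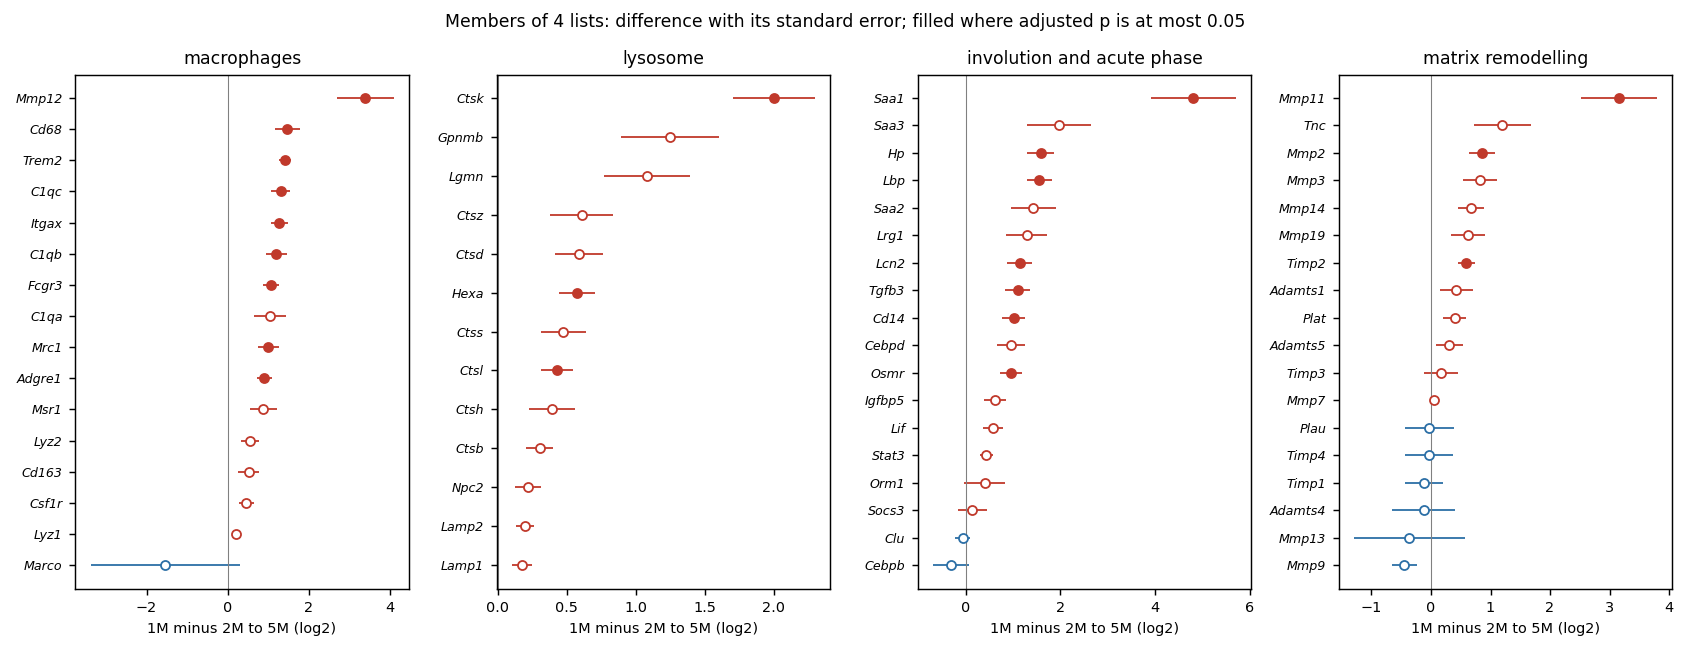
Difference between 1M and 2M to 5M (log2, horizontal axis, bar = standard error) for each measured member of the lists for macrophages, lysosome, involution and acute phase, and matrix remodelling, filled where the adjusted p was at most 0.05. All 13 lysosomal genes lie right of 0, as do 15 of 16 macrophage markers and 16 of 18 acute-phase genes.

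Acute-phase and involution genes followed the same direction. Of 18 measured 7 were higher and 0 lower (38.9% against 1.99% of all genes), with a median difference of 0.99. Lbp, which binds bacterial lipopolysaccharide, read 13.10, 12.61, 13.07, 13.43 and 12.30 in 1M and 10.62 to 12.60, median 11.34, later (1.55 ± 0.27, adjusted p = 0.00196). Hp, the haemoglobin scavenger haptoglobin, read 14.66, 14.80, 15.17, 15.11 and 14.72 in 1M and 12.23 to 14.82, median 13.33, later (1.58 ± 0.29, adjusted p = 0.00285). In both genes 1 or 2 later arrays reached into the 1M range. Lcn2, an iron-trapping lipocalin, was higher by 1.14 ± 0.27 (adjusted p = 0.0186), the lipopolysaccharide co-receptor Cd14 by 1.02 (0.019), the oncostatin M receptor Osmr by 0.95 (0.0207) and the growth factor Tgfb3 by 1.10 (0.0227).

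Of the regulators of this response, the receptor Osmr passed, as given above, but Stat3, Socs3 and Cebpb did not. Stat3 differed by 0.44 (adjusted p = 0.10), its inhibitor Socs3 by 0.14 and Cebpb by -0.31, and the chaperone clusterin (Clu), abundant in involuting glands, by -0.06 (0.909). The mean of the list was 11.57 to 12.76 in 1M and 10.04 to 11.90, median 11.11, later, so that 4 of the 5 1M glands lay above all later ones. The later glands were themselves above the controls (9.68 to 10.28) in this measure, with 1 array below their highest value. The number of calls rested on single mice, being 3 without 1M replicate 1 or 4 and 4 without replicate 2 or 3, and 0 in limma without the arrays high in T cell markers (8 at an unadjusted p under 0.05, median 0.83). Lcn2 lost its call without 1M replicate 1, 3 or 4 (adjusted p up to 0.0823).

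Lysosomal genes shifted by less but more evenly. All 13 measured were higher in 1M by their means, 13 at an unadjusted p under 0.05 (10.4% of all genes), and 3 at adjusted p at most 0.05 (23.1%), with a median difference of 0.48. Ctsk, the collagen-degrading cathepsin K, carried the largest change. It read 13.85, 14.07, 12.78, 13.84 and 14.03 in 1M and 10.27 to 12.74, median 11.79, later, with no overlap (2.00 ± 0.30, adjusted p = 0.000565), and 11.68 in controls. Hexa, a hexosaminidase (0.57, adjusted p = 0.0146), and cathepsin L, Ctsl (0.43, 0.0452), also passed, and Gpnmb (1.25, 0.0589) and the protease legumain, Lgmn (1.08, 0.0611), came close. The mean of the list was 13.95 to 14.29 in 1M and 13.03 to 13.82 later, again without overlap. Hexa was lost without 1M replicate 2 or 4 (adjusted p up to 0.0657) and Ctsl in 13 of the 25 fits without 1 array (up to 0.158), and 1 to 5 members were called across those fits, with 1 left without 1M replicate 2 or 4. Without the arrays high in T cell markers limma called 0 of them, 10 being higher at an unadjusted p under 0.05.

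Among 18 genes of matrix remodelling 3 were higher and 0 lower (16.7%, median difference 0.35). Beside Mmp11 these were the gelatinase Mmp2 (0.86, adjusted p = 0.0268) and the inhibitor Timp2 (0.60, 0.0219), and the membrane protease Mmp14 differed by 0.67 (0.0998). Mmp2 was lost without 1M replicate 1, 2, 4 or 5 (adjusted p up to 0.109) and Timp2 without replicate 2, 3 or 4 (0.083), so that Mmp11 alone was called without replicate 2 or 4. Without the arrays high in T cell markers limma called 0, with 5 higher at an unadjusted p under 0.05.

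**Figure D3:**
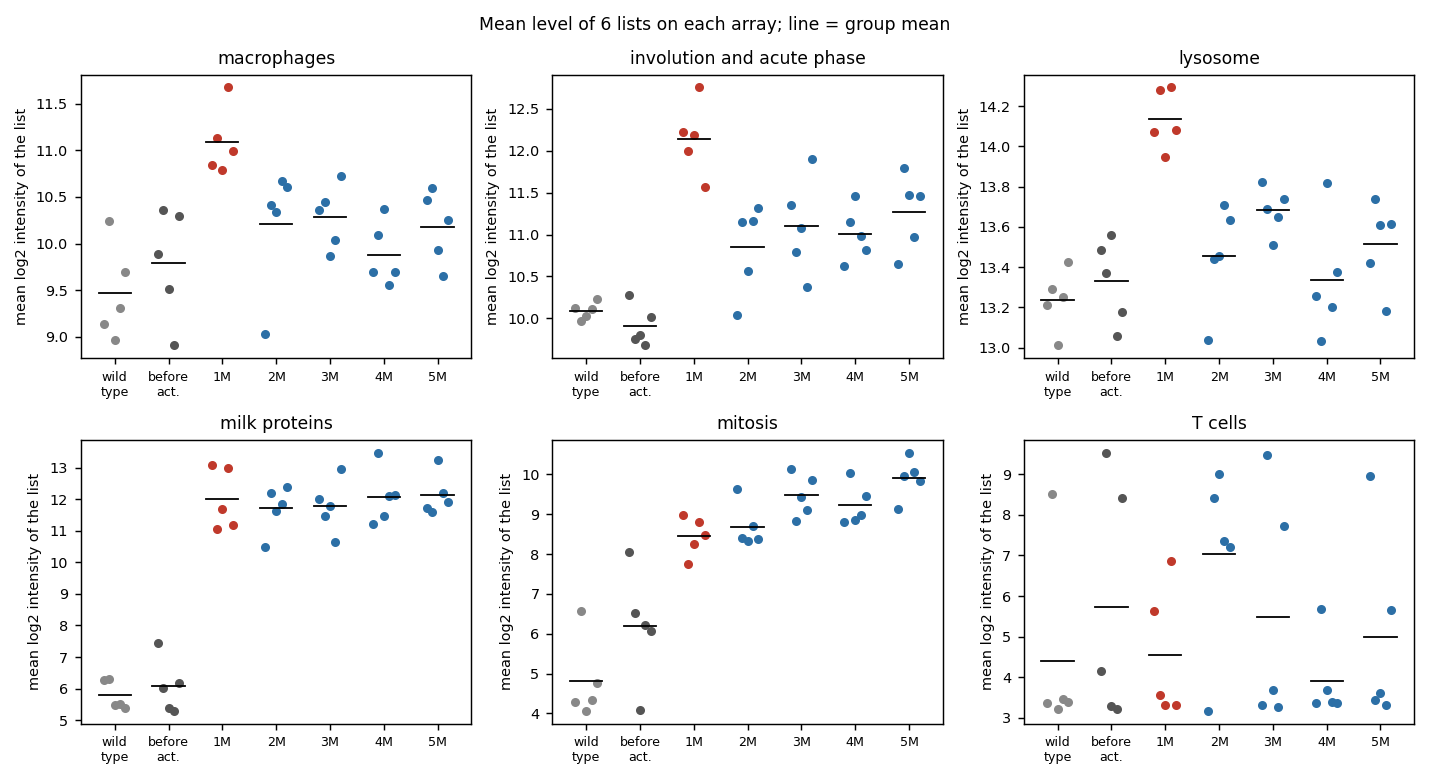
Mean log2 intensity over the members of 6 lists (panels) on each array, by group, with a line at each group mean and 5 arrays per group. The 1M glands lie above all later ones for macrophages (10.79 to 11.67 against at most 10.72) and the lysosome, overlap them for milk proteins, lie low for mitosis, and span 3.32 to 6.87 for T cells, against 3.17 to 9.47 in the later glands.

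By their mean level, milk protein genes did not separate 1M from the later months. The mean of 13 genes was 11.06 to 13.07 in 1M, 10.50 to 13.47 with a median of 11.87 later, and 5.30 to 7.46 in controls. Of the 13, 1 was higher and 1 lower (7.69% each), and the median difference was 0.19. At an unadjusted p under 0.05, 6 were higher and 2 lower (10.4% and 5.86% of all genes). The caseins Csn3 and Csn1s2a differed by 0.26 and 0.19 on their brightest probe sets. Dimmer probe sets gave 1.81 for Csn3 (adjusted p = 0.054) and 0.23, 2.06, 1.83 and 0.02 for Csn1s2a, and none passed. Csn2, beta-casein, averaged 15.91 in 1M and 15.94 later (-0.04, adjusted p = 0.914, but 0.06 with each array centred on its median), near the top of the scale, and 3.20 in controls. Wap, the whey protein whose promoter drives the transgene, read 12.37, 8.19, 10.59, 12.40 and 9.67 in 1M and 6.22 to 11.91, median 8.62, later (2.01 ± 0.78, adjusted p = 0.209). The spread of Wap inside the 1M group, from 8.19 to 12.40, was larger than the difference. Lalba, the whey protein of lactose synthesis, was at 1.93 (0.199) and Lao1, an amino acid oxidase of milk, at 2.93 (0.0592).

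The milk gene called higher was Cel, the bile salt-activated milk lipase. It read 12.17, 10.21, 11.29, 11.89 and 9.28 in 1M and 6.98 to 10.75, median 8.83, later (2.02 ± 0.54, adjusted p = 0.042), and the call was lost in 12 of the 25 fits without 1 array (up to 0.159). Of 16 genes for milk fat and secretion, 8 were higher and 1 lower at an unadjusted p under 0.05 (10.4% and 5.86% of all genes). At adjusted p at most 0.05, 3 were higher and 0 lower (18.8%, median 0.41). These were Xdh, xanthine oxidoreductase of the milk fat globule (0.90 ± 0.20, adjusted p = 0.0123), the mucin Muc1 (1.07, 0.0183) and Mfge8, which tags dead cells for uptake (0.61, 0.0228). The lipid droplet protein Plin2 (0.41, 0.0507) and butyrophilin, Btn1a1 (1.35, 0.0589), did not pass. Across the 25 fits without 1 array, 1 to 6 members of this list were called, with 6 called without 4M replicate 2. Muc1 and Mfge8 were each lost without 1M replicate 1, 3 or 4 (up to 0.0917 and 0.122), and limma called 0 of either milk list without the arrays high in T cell markers, where 2 milk protein genes were higher and 4 lower, and 4 and 2 of the milk fat genes, at an unadjusted p under 0.05.

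**Figure D4:**
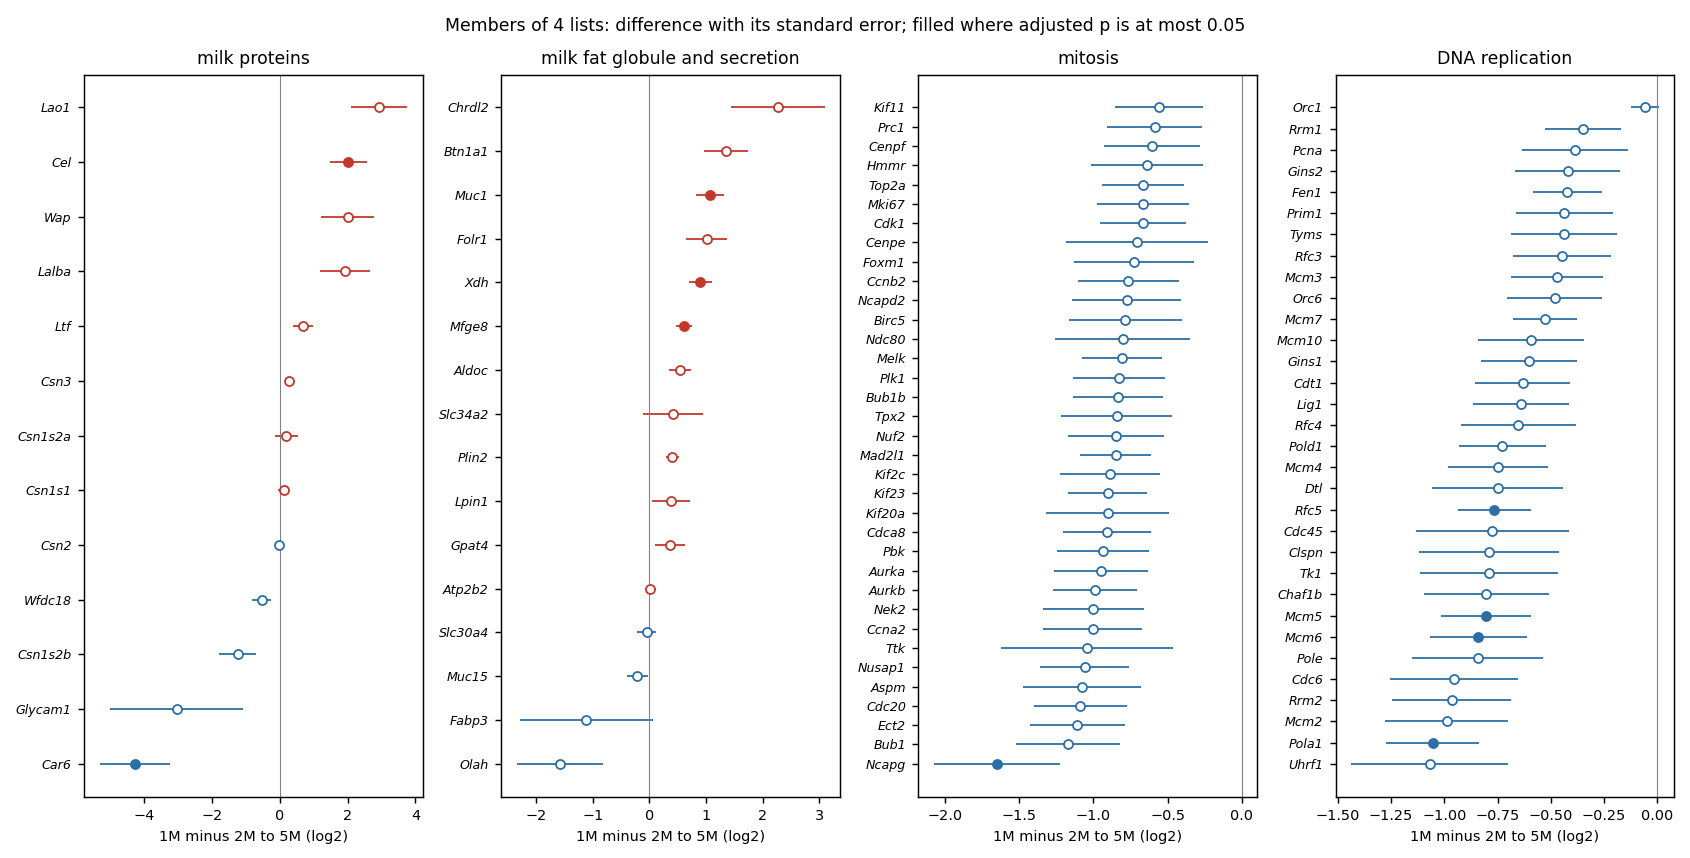
Difference between 1M and 2M to 5M (log2, horizontal axis, bar = standard error) for each measured member of the lists for milk proteins, milk fat globule and secretion, mitosis, and DNA replication, filled where the adjusted p was at most 0.05. Milk genes scatter on both sides of 0 with Car6 far to the left, while all 35 mitosis and all 32 DNA replication genes lie left of 0.

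Among the genes lowest in 1M, some went on climbing from 2M to 5M. Sult1d1, a cytosolic sulfotransferase, read 4.50, 3.60, 2.99, 4.37 and 6.07 in 1M and 4.42 to 11.81, median 9.41, later (-4.46 ± 0.96, adjusted p = 0.01). Its month means were 5.74, 9.02, 9.66 and 10.64 from 2M to 5M, and the slope over those 20 arrays alone, 1.53 per month, passed (adjusted p = 0.016), as it did for 18 rising genes in all (0.0989%) and 2 falling ones (0.011%). Car6, the carbonic anhydrase secreted into saliva and milk, read 6.61, 7.75, 4.30, 6.30 and 8.57 in 1M and 7.17 to 13.89, median 11.33, later (-4.28 ± 1.04, adjusted p = 0.0228). Its means were 8.24, 10.28, 12.88 and 12.56 (slope 1.56, adjusted p = 0.032). For both genes the difference from 2M alone did not pass (adjusted p = 0.38 and 0.52), and controls were near the floor (2.77 and 2.69).

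The transcript 2310057J18Rik, which was left out of the ranking as a clone name and picked after its values were seen, followed the same course. It read 4.12, 6.44, 3.37, 3.54 and 8.94 in 1M and 5.90 to 15.78, median 12.82, later (-6.51 ± 1.29, adjusted p = 0.00562, slope 1.92 with adjusted p = 0.016). Its call was lost in the methods' t-test (adjusted p = 0.055) and without the arrays high in T cell markers (0.123). Gm266, also picked afterwards, was low at 1M and as high later as in controls by its means: 4.13 in 1M, 8.60 later and 8.57 in controls (-4.47 ± 0.67, adjusted p = 0.000669). The annotation used gave no role for either.

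For other lowest genes the means of the later glands and of the controls both lay above those of 1M. Dsc2, the desmosomal cadherin desmocollin 2, read 7.10, 6.21, 6.03, 7.05 and 6.14 in 1M and 8.16 to 12.03, median 9.21, later, with no overlap (-2.69 ± 0.38, adjusted p = 0.000381), against a mean of 8.79 in controls. Scg3, a granin of secretory granules, read 6.45, 5.79, 4.71, 5.24 and 5.15 in 1M and 6.02 to 10.58, median 8.39, later (-2.75 ± 0.53, adjusted p = 0.00438), with 9.56 in controls. Neither had a slope over 2M to 5M that passed (adjusted p = 0.64 and 0.40). Ptn, the heparin-binding growth factor pleiotrophin, was picked after its values were seen. It averaged 12.03 in 1M, 13.68 later and 13.87 in controls, every 1M array lay below every later one (-1.65 ± 0.24, adjusted p = 0.000463), and a dimmer probe set of the same gene differed by -2.50 (4.76e-05).

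The rest of the 12 lowest had varied roles. Rspo1, which amplifies Wnt signals, averaged 3.34 ± 0.50 in 1M, near the floor, and 6.16 ± 1.41 later (-2.82 ± 0.64, adjusted p = 0.014), and Wif1, which blocks Wnt ligands, 7.79 ± 1.45 and 10.15 ± 1.00 (-2.35 ± 0.54, 0.0147; SD, n = 5 and 20). Tnfrsf19, a receptor of the tumour necrosis factor family, differed by -2.25 (0.0163), the neural adaptor Bex1 by -2.25 (0.0135), the immediate early factor Egr3 by -2.24 (0.00762), the ubiquitin-like modifier Ubd by -2.21 (0.00762), mesothelin, Msln, by -2.15 (0.0274) and Sidt1, a relative of the worm channel for double-stranded RNA, by -2.05 (0.00149). Msln did not overlap between the groups but stood at 3.36 in 1M and 5.52 later, near the floor. Dimmer probe sets did not pass for Dsc2 (-1.08, adjusted p = 0.229), Sidt1 (-0.35, 0.763), Egr3 (-0.01, 0.914), Sult1d1 (-2.70, 0.0971) or Tnfrsf19 (-0.38, 0.499, and 0.01, 0.866). Of the 12 lowest, Dsc2, Scg3 and Sidt1 passed in each of the 25 fits without 1 array and also without the arrays high in T cell markers (adjusted p = 0.0342, 0.00242 and 0.0432). The other 9 were each lost without at least 1 of the 1M mice: Sult1d1, Tnfrsf19, Egr3 and Ubd without replicate 3 (adjusted p 0.0503, 0.0971, 0.0515 and 0.0515), Wif1 without replicate 3 or 4 (up to 0.0994), Rspo1 and Bex1 without replicate 2, 3 or 4 (0.0569 and 0.0637), Car6 without any of replicates 1 to 4 (0.117) and Msln without any of the 5 (0.0871).

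Genes of DNA replication and mitosis had lower means in 1M than later, and few of these differences passed. Of 32 measured DNA replication genes all had lower means in 1M, 25 at an unadjusted p under 0.05 (5.86% of all genes), and 4 were lower and 0 higher at adjusted p at most 0.05 (12.5% against 1.23% of all genes). Their median difference was -0.69. Pola1, the catalytic subunit of DNA polymerase alpha, read 8.19, 7.71, 8.07, 8.15 and 8.37 in 1M and 8.49 to 10.11, median 9.07, later, with no overlap (-1.06 ± 0.22, adjusted p = 0.00785), and 6.74 in controls. Its month means were 8.65, 9.28, 9.17 and 9.51 from 2M to 5M. Rfc5, a subunit of the clamp loader, differed by -0.77 (adjusted p = 0.0129), and Mcm5 and Mcm6 of the replicative helicase by -0.80 (0.0358) and -0.84 (0.0454).

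The mitosis list showed the same direction with fewer calls. All 35 genes had lower means in 1M, 26 at an unadjusted p under 0.05 (5.86% of all genes), but only Ncapg, a condensin subunit, passed (-1.65 ± 0.42, adjusted p = 0.0317; 2.86%). The median difference was -0.85. Mad2l1 (-0.85, adjusted p = 0.0519), Nusap1 (-1.06, 0.0574) and the kinase Aurkb (-0.99, 0.0604) came close and the proliferation marker Mki67 (-0.66, 0.329) did not. Most calls against single months were against 5M: 0, 4, 0 and 25 of the 35 were lower than at 2M, 3M, 4M and 5M taken alone, and 0, 4, 2 and 19 of the DNA replication genes. The slope over 2M to 5M passed for 0 genes of either list in limma, while 29 mitosis and 19 DNA replication genes had a rising slope at an unadjusted p under 0.05 (median slopes 0.32 and 0.22 per month). The median slope over all genes was 0.0052, and the share of all genes with a rising slope at that unadjusted p was not counted. Averaged over the mitosis list, the 1M glands stood at 8.98, 7.74, 8.25, 8.80 and 8.48, the later glands at 8.32 to 10.54 with a median of 9.28, and the controls at 4.07 to 8.04, so that 1M replicate 2 lay below the highest control. Against the controls the median of the mitosis list was 3.15 in 1M with 27 genes higher and 3.95 in the later glands with 35 higher, and that of the DNA replication list 1.38 with 17 higher and 2.11 with 32 higher. Of all genes 4.24% were higher than controls in 1M and 11.2% in the later glands. The later glands had 20 arrays and 1M had 5, so these counts cannot be compared directly.

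Regulators of the same step were lower too in part. Of 24 genes of the Rb and E2F axis 3 were lower and 0 higher (12.5%, median -0.27): cyclin D1, Ccnd1 (-1.34 ± 0.29, adjusted p = 0.0102), the kinase Cdk2 (-0.83 ± 0.17, 0.00869) and the pocket protein Rbl1 (-0.62, 0.0498). Ccnd1 averaged 9.27 in 1M, 10.61 later and 10.74 in controls, whereas Cdk2 stood at 8.64, 9.47 and 8.05. Of 13 DNA repair genes 1, Rpa2 of the single-strand binding complex, was lower (-0.55, adjusted p = 0.0472; 7.69%, median -0.62). Several of these calls rested on single arrays. Rfc5 was lost without 1M replicate 2 or 3 (adjusted p up to 0.083), Mcm5 without any of 1M replicates 2 to 5 (0.216), Ncapg without any of 1 to 4 (0.19), Cdk2 and Ccnd1 without replicate 4 (0.053 and 0.0569), and Mcm6, Rbl1 and Rpa2 in 14, 16 and 18 of the 25 fits (up to 0.205, 0.189 and 0.22), while Pola1 passed in all. The DNA replication list held 1 call without 1M replicate 2 or 3 and 7 without replicate 1, 9 with 2M left out of the later glands and 2 with 5M left out. The mitosis list held 12 calls without 2M and 0 without 3M, without 5M or without any of 1M replicates 1 to 4. Without the 4 5M arrays low in Dap it held 0 and the DNA replication list 2, with 19 and 17 lower at an unadjusted p under 0.05. Without the arrays high in T cell markers limma called 0 genes of either list, but 34 mitosis and 28 DNA replication genes were lower at an unadjusted p under 0.05 and the medians were -1.36 and -1.01.

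The promoters of the DNA replication genes called lower are shown because these genes moved together and are textbook targets of E2F. RefSeq sequences of 250 bases before to 50 bases after the start (GRCm38.p6) were searched for the E2F core TTTNGCGC on both strands, and capitals mark each match. They follow here 5′ to 3′ on the strand of the gene, for Pola1 at chrX:93632106-93632405 (minus strand), Rfc5 at chr5:117388974-117389273 (minus strand), Mcm5 at chr8:75109259-75109558 (plus strand) and Mcm6 at chr1:128359656-128359955 (minus strand).
Pola1: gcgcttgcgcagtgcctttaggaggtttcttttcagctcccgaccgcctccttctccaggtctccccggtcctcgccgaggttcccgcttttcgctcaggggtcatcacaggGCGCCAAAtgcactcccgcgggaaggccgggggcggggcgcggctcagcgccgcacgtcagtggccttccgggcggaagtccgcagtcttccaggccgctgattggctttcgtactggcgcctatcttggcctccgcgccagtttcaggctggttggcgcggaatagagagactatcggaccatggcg
Rfc5: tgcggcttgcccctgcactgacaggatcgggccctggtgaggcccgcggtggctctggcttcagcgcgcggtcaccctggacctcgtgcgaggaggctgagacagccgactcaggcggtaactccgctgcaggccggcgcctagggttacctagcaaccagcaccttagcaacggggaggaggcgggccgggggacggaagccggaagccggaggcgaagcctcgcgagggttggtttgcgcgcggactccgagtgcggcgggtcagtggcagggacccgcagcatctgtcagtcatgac
Mcm5: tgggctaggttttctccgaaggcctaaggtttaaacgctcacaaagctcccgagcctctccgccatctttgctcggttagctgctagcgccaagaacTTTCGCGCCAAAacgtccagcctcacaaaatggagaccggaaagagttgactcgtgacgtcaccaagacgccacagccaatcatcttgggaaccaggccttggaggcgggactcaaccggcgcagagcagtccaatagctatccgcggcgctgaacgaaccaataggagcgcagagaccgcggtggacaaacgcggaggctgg
Mcm6: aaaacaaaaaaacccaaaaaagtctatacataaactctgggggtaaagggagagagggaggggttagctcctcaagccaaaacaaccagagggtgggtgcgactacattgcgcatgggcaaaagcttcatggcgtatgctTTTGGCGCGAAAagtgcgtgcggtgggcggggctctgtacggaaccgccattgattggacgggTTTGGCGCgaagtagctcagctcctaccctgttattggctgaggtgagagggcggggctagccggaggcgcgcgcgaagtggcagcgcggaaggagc
Pola1 held 1 match, at position -138 from the start. Mcm5 held 2 that overlap on opposite strands, Mcm6 held 3, of which 2 overlap in the same way, and Rfc5 held 0 in this window. The core was found in 12 of the 28 DNA replication genes with a promoter in the table (42.9%), 2 of 29 mitosis genes (6.9%), 4 of 17 Rb and E2F regulators (23.5%), and 1.57% of all 27025 genes. It was found in 14 of 178 genes lower at 0.05 (7.87%) and 6 of 275 genes higher (2.18%). A second motif, the STAT palindrome TTCNNNGAA, was found in 4 of 11 milk protein genes (36.4%), 1 of 11 acute-phase genes, 7.64% of the higher genes and 5.06% of the lower ones, against 9.55% of all. A match is a stretch of letters only, and no binding was measured here.

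The remaining lists gave few calls. Derl3, a chaperone pathway protein of antibody-secreting cells, was the 1 of 12 plasma cell and IgA genes that passed (1.09 ± 0.21, adjusted p = 0.00425; 8.33%), while the joining chain Jchain differed by 0.81 (0.0728) from an already high level of 14.34 later. Cxcl14 was the 1 of 14 chemokines (0.85 ± 0.18, 0.00806), Tie1, a receptor of blood vessels, the 1 of 15 endothelial genes (1.16, 0.0294, no overlap), and Ddit3 the 1 of 10 stress genes of the endoplasmic reticulum (0.43, 0.0472, lost in 18 of the 25 fits without 1 array, up to 0.196). Of 11 genes for ion and water transport, the chloride channel protein Clic6 (1.73 ± 0.40, 0.0155) and the zinc carrier Slc39a8 (0.99, 0.0196) were higher. Gbp3, a guanylate-binding protein, was lower and the 1 of 13 interferon genes that passed (-0.83, 0.0186), and Egr3 the 1 of 15 immediate early genes. Tie1 and Slc39a8 were each lost without any of 1M replicates 1 to 4 (adjusted p up to 0.117 and 0.0737), Clic6 without replicate 1, 2 or 4 (0.0662) and Gbp3 without replicate 2, 3 or 5 (0.0936).

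The other 21 of the 38 lists held 0 calls at adjusted p at most 0.05 in limma, 20 of their 233 members having an unadjusted p under 0.05 (16.2% of all genes) and 3 passing the methods' t-test (with unequal variances) after adjustment. Luminal epithelium, the tissue in which the transgene acts, had a mean level of 11.49 to 12.03 in 1M and 11.05 to 12.53, median 11.74, later, with a median difference of 0.03 over 16 genes. By month the mean was 11.71 at 1M, 11.28 at 2M, 11.75 at 3M, 11.70 at 4M and 12.02 at 5M, and its part in the differences from single months was not tested. The basal layer also differed by 0.03 and adipocyte genes by 0.27. Neutrophil markers had a median difference of -0.01, with their granule enzyme Elane at the floor (2.21). T cell and B cell markers had medians of -0.86 and -1.04 with 0 members at an unadjusted p under 0.05, and skeletal muscle and brown fat, further tissues that a dissected gland can carry, -0.35 and -0.73. The mean level of the skeletal muscle list ran from 3.84 to 10.03 in 1M and from 3.55 to 14.66 later. That of brown fat ran from 4.99 to 7.51 in 1M and from 5.66 to 11.40 later. The part of these 2 tissues in the results was not tested.

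**Figure D5:**
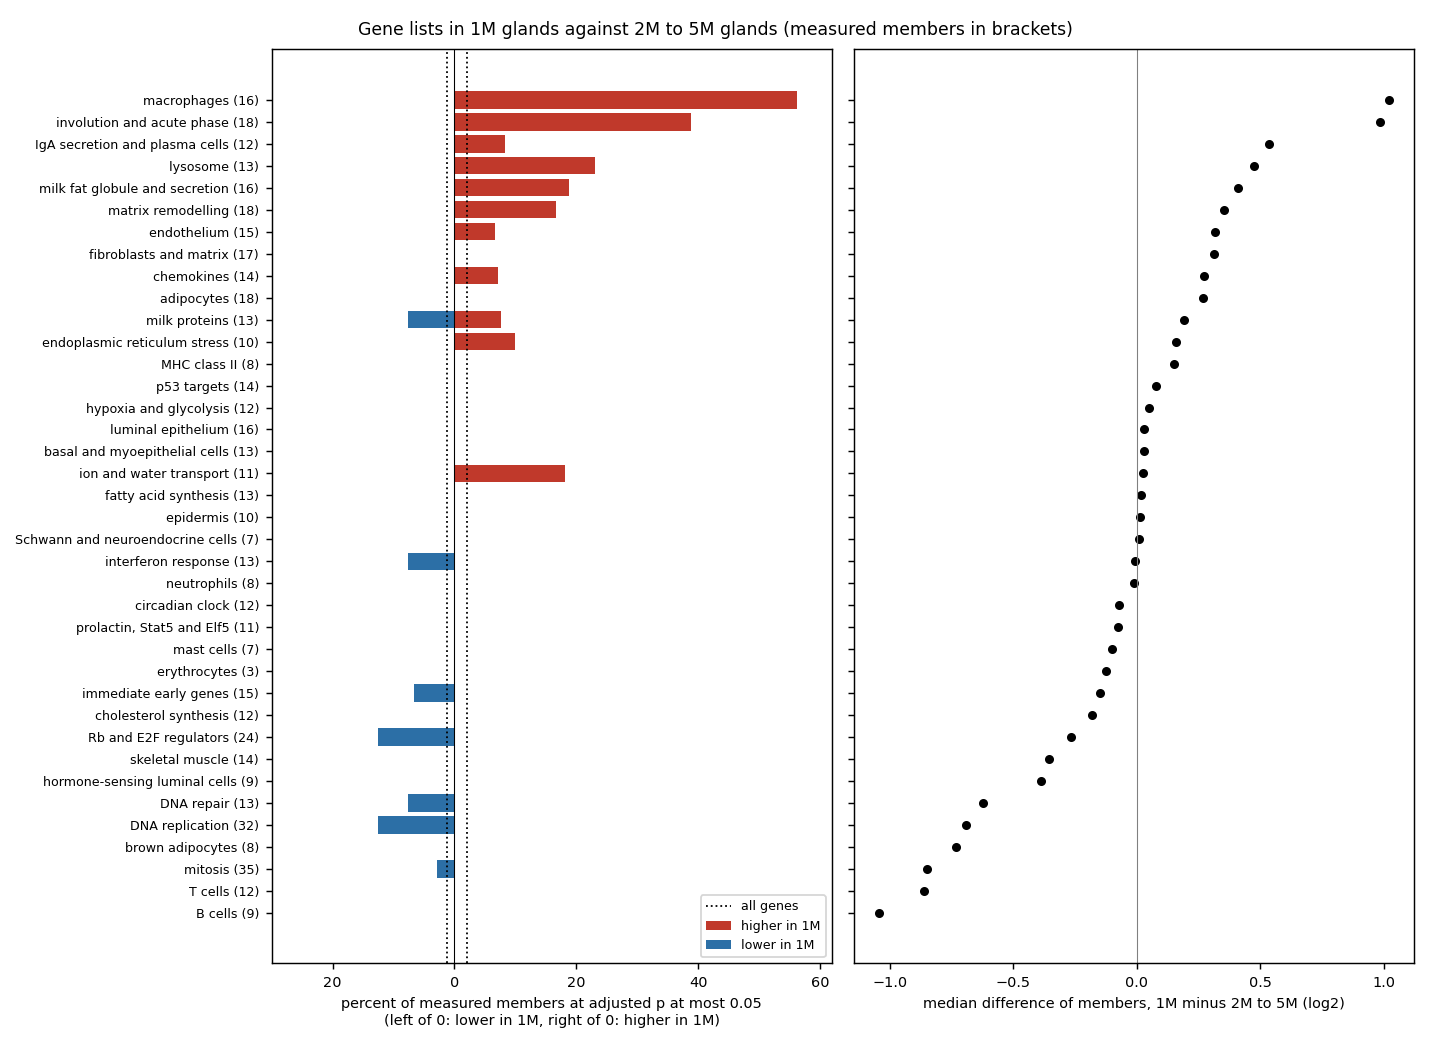
Left, percent of the measured members of each of 38 gene lists called higher (right of 0) or lower (left of 0) in 1M at adjusted p at most 0.05, with dotted lines at the percent of all genes (1.99% and 1.23%). Right, median difference of the members (log2). Macrophages (56.2%) and involution and acute phase (38.9%) stand out to the right, and the medians of mitosis and DNA replication lie at -0.85 and -0.69.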

How the data were processed

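RNA of 40 mammary samples, 5 in each of 8 groups, was hybridised to Affymetrix whole-genome mouse arrays, 1 per mouse, and 25 of these were used for the comparison. The authors made the deposited intensity values with GCRMA in GeneSpring GX 10, and the deposited log2 table is the same values on the log2 scale minus the median of each probe set over all arrays (the tables agreed to 1.04e-06). The log2 of the intensities was used here as it stood. After 64 control probe sets were set aside, 45037 were tested, of which 34945 carried 1 gene symbol, 932 several and 9160 none, and the brightest probe set over 40 arrays stood for each of 18193 genes. Array medians of the 25 arrays were 19.7 to 24.0 in intensity, and the number of arrays limits the precision.

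The main fit was a group factor of 2 levels in limma 3.58.1 (R 4.3.3) with Benjamini-Hochberg adjustment and two-sided tests, and further fits set 1M against each month and gave the slope over 2M to 5M. Per the methods of the study the thresholds were adjusted p at most 0.01 and 5-fold, with 0.05 added here, and its own test, an unequal-variance test, was run as an alternative. Other alternatives were the replicate number as a block, normalization, centring, a filter and a floor at 5, single months, single arrays and other probe sets left out or exchanged. Exact permutation tests were run in Python 3.11.15 with scipy 1.17.1. The code was tested on simulated data. Same-numbered arrays share a number only, since the labels tie it to nothing else. Per the study each array came from its own mouse (the labels give replicate numbers only). On that reading p-values of the main fit measure the spread between mice together with differences between the pooled months. With the 5 months as separate groups, 715 probe sets were higher and 890 lower at 0.05, against 607 and 669. Named were the 12 highest and 12 lowest genes at adjusted p at most 0.05, clone names skipped, and up to 4 members per list by adjusted p, with further members given where they explain a list. The members and all 38 gene lists, of which 521 of 560 genes were measured, were chosen with earlier results of these data known.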

Additional observations from a re-analysis of the deposited data

Results flagged for a closer look

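In 14 of 120 groups of 5 arrays (24 leading genes, 11.7%) the highest or lowest array stood apart from the other 4 by Dixon's criterion, which chance alone gives in about 1 of 20 groups. Inside the 1M group this was so for Bnc1, where replicate 5 was lowest at 5.17 and the others were at 6.94 to 7.49, for Mmp11, where replicate 3 was lowest at 9.68 against 11.18 to 11.50, and for Rspo1, where replicate 5 was highest at 4.21. In the later groups Saa1 was lowest in 2M replicate 1 (3.95) and 5M replicate 1 (5.20), and Igkv6-14 in 2M replicate 1 (4.00) and 4M replicate 2 (3.07). Cyp24a1 was highest in 3M replicate 5 (5.59), 4M replicate 2 (6.32) and 5M replicate 3 (4.45), Igkv15-103 in 3M replicate 5 (7.26) and 4M replicate 4 (3.98), Dsc2 in 4M replicate 1 (12.03) and Slc13a2 in 4M replicate 3 (7.37).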

How the results depend on the processing

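Leaving out 1 array in turn gave 4 to 16 probe sets higher and 7 to 36 lower at the strict thresholds, against 12 and 17, and 286 to 717 higher and 276 to 835 lower at 0.05, against 607 and 669. The lowest counts came without 1M replicate 1 (4 higher, strict) and without 1M replicate 2 (4, 7, 286 and 276), with like counts without replicate 3 (6, 7, 333 and 306) and replicate 4 (4, 7, 314 and 315). Without replicate 5, 36 were lower, and without 4M replicate 5, 7 were higher. The methods' t-test gave 5 higher and 11 lower (13 and 20 with no adjustment), and 438 and 486 at 0.05. Only 217 and 183 of these calls at 0.05 were shared with the main fit. In that test 25 of 80 gene results lost their call and 3 gained one. A floor at 5 gave 10 lower, and centring gave 15875 higher and 1194 lower at 0.05. Without 2M or without 3M 7 were higher, without 4M 5 were higher and 10 lower, and without 5M 6 were higher and 10 lower, with 401 higher at 0.05. Without the arrays high in T cell markers, an alternative chosen after seeing the data as were those on Dap and Gapdh, the counts were 2, 4, 49 and 59. Of those calls at 0.05, 39 and 51 were shared with the main fit, and 54 of 80 gene results lost their call and 2 changed sign. Without the 5M arrays low in Dap the counts were 8, 12, 507 and 519. The cause of these changes was not tested.

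With the replicate block the counts were 11, 16, 539 and 638, and 512 and 593 of the calls at 0.05 were shared with the fit without it. Of 80 gene results 6 lost their call and 1 gained one (Ctsl, Mcm5, Mcm6, Rbl1, Rpa2 and Ddit3 lost theirs). Same-numbered arrays had deviations with a mean correlation of -0.02 over 50 pairs, and 5 of 25 arrays correlated best with their own number.

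Csn2 turned to 0.0647 with centring, ranged from -0.0826 (without 1M replicate 3) to 0.0314 (without 1M replicate 2) with single arrays left out, turning to 5e-04 without 1M replicate 5 too, and was 0.13 on another probe set, and without the arrays high in T cell markers Csn1s1 turned to -0.17 and Csn1s2a to -0.15. Of 55 other probe sets of the genes followed here, 26 did not pass where the brightest one did, and 9 changed sign. Such dim probe sets gave 0.0122 for Tnfrsf19, 0.0049 for Pola1, 0.0409 for Cdk2, 0.0032 for Rbl1, 0.0342 for Nusap1, 0.0281 for Chek1, 0.0109 for Rad54l and 0.0026 for Gm266. Levels near the floor limit what Mlana, Trem2, Rspo1 and Msln can show, the last 3 of which lost their call with a floor at 5.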
